A study of Homo sapiens with 4 samples.

Results

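The 10 genes described here are NFE2L2 and KEAP1, the transcription factor and the sensor of the oxidative stress response, and 8 genes counted among its antioxidant targets: NQO1, HMOX1, GCLC, GCLM, TXNRD1, SRXN1, OSGIN1 and GPX4. They were taken by symbol from a list of these names, and all 10 were found among the 56832 genes measured. RNA was sequenced from A375, an established human melanoma cell line labelled wild type and grown in DMEM with serum. One group received 1 mM octanoate, a saturated medium-chain fatty acid, and the other its vehicle isopropanol, both for 48 h. Each group holds 2 libraries. The labels do not say whether these came from separate cultures, so the spread between these libraries may be technical. The p-values rest on that spread as pooled largely over genes, not on the libraries of each gene alone.

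The factor NRF2, the product of NFE2L2, is held in the cytoplasm by KEAP1, which presents it to a CUL3 ubiquitin ligase for breakdown. When electrophiles or oxidants modify cysteines of KEAP1, NRF2 escapes, enters the nucleus, pairs with a small MAF protein and binds antioxidant response elements beside its targets. BACH1 binds the same elements as a repressor, best known at HMOX1. The targets make and use glutathione, reduce thioredoxin, quinones and lipid peroxides, break down heme, and supply NADPH, and in many tumours the pathway is constitutively active.

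The core of the antioxidant response element, TGACNNNGC, was searched on both strands in the 250 bases upstream of each RefSeq transcript start (build GRCh38.p14). The table of promoters held 9 of the 10 genes, not HMOX1, with 14 starts between them. The core was present for 3 genes, GCLM, TXNRD1 and KEAP1, against 13.2% of the 27305 genes in the table. The 5 matches are shown because they let the best known element of the pathway be read beside the values that follow. Each line runs 5′ to 3′ in the orientation of the core, which is in capitals, with 10 bases on either side.
GCLM, chr1:93909446-93909474, plus strand: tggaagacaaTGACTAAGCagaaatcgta
TXNRD1, first start, chr12:104215670-104215698, plus strand: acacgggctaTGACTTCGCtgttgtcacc
TXNRD1, second start, chr12:104286920-104286948, minus strand: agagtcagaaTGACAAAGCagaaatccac
KEAP1, chr19:10502807-10502835, minus strand: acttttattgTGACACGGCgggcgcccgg
KEAP1, chr19:10502784-10502812, plus strand: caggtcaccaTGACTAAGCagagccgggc

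The GCLM core begins 34 bases before the RefSeq start and touches an exon of GCLM in GENCODE 29, which starts the gene further upstream. Both KEAP1 cores, which do not overlap, lie in an annotated KEAP1 exon before another RefSeq start. The first TXNRD1 core lies outside any annotated gene, and the second is in a TXNRD1 exon. A match says only that these letters are present. For genes without one, such as NQO1, elements further from the start were not searched.

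Read totals per library, recovered from the normalised values, lay between 67785956 and 78005035. All values below are read counts scaled by 1 size factor per library and are called normalised counts. The lineage factor SOX10 was at 34072 to 41363 in the 4 libraries, whereas the pigment enzyme TYR was under 4 in every one. Some other melanocyte lineage markers differed between the groups. MITF was at 3533 and 3330 in vehicle and 2414 and 2511 in octanoate (adjusted p 2.33e-06 by limma). S100B was at 4234 and 3741 in vehicle and 1917 and 1746 in octanoate (adjusted p 9.15e-12 by limma). Of the 9 markers in this list averaging 10 or more, 3 were called lower (MITF, S100B and PRAME) and 1 higher (PMEL). Over all genes tested 29.9% were called, 13.7% lower and 16.2% higher. The part of these markers in the results was not tested. Of the 5 keratinocyte markers, 2 averaged 10 or more, KRT14 and KRT10. KRT14 was at 1110.1 and 942 in vehicle and 266 and 218 in octanoate (log2 difference -2.08, adjusted p 2.4e-13 by limma). KRT10 was not called (log2 difference 0.05, adjusted p 0.746 by limma). KRT5 was at 12.8 and 7.75 in vehicle and 2.89 and 3.25 in octanoate. DSG3 was at 0.98 and 0.97 in vehicle with no read in octanoate, and KRT1 had no read. The summed level of the 5 keratinocyte markers, mostly KRT10, was 5673 to 6704 in vehicle and 4787 to 6441 in octanoate, and its part in the results was not tested. The 5 endothelial markers summed to 612 to 617 in vehicle and 814 to 830 in octanoate, and the 5 fibroblast markers to 2344 to 2389 and 2057 to 2186. Among the endothelial markers PECAM1 and VWF were called higher (log2 difference 0.95 and 0.50, adjusted p 1.05e-05 and 0.0479 by limma). Among the fibroblast markers COL1A1 was called lower (log2 difference -0.69, adjusted p 3.63e-05 by limma). The rest of both lists were not called, and the part of these markers was not tested either. In bulk RNA, fewer cells of one kind and less RNA per cell cannot be told apart.

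Differences were tested with limma on log2(normalised count + 1) over the 20250 genes averaging 10 or more, and a gene was called at a Benjamini-Hochberg adjusted p under 0.05. Of the 10 antioxidant genes, 2 were called and both fell under octanoate: NQO1, by 19.9%, and KEAP1, by 18.0%. No gene of the set was called higher by limma, nor at an unadjusted p under 0.05 (0 genes), nor by edgeR or DESeq2 on the recovered reads (0 genes each). All 10 passed the filter on low values. Across all genes tested 29.9% were called, 16.2% higher and 13.7% lower. Where the mean was 100 or more, as it was for all 10, the share was 38.3%. The median log2 difference of the 10 was -0.09, beside 0.01 over all genes tested. The authors' deposited table also lists KEAP1 and NQO1 as the only calls among the 10, both lower, where 12.9% of its genes are called (6.89% higher and 6.01% lower). That share is over 33533 genes, many of them below the filter used here. It is therefore not matched to genes at the levels of the 10.

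**Figure D1:**
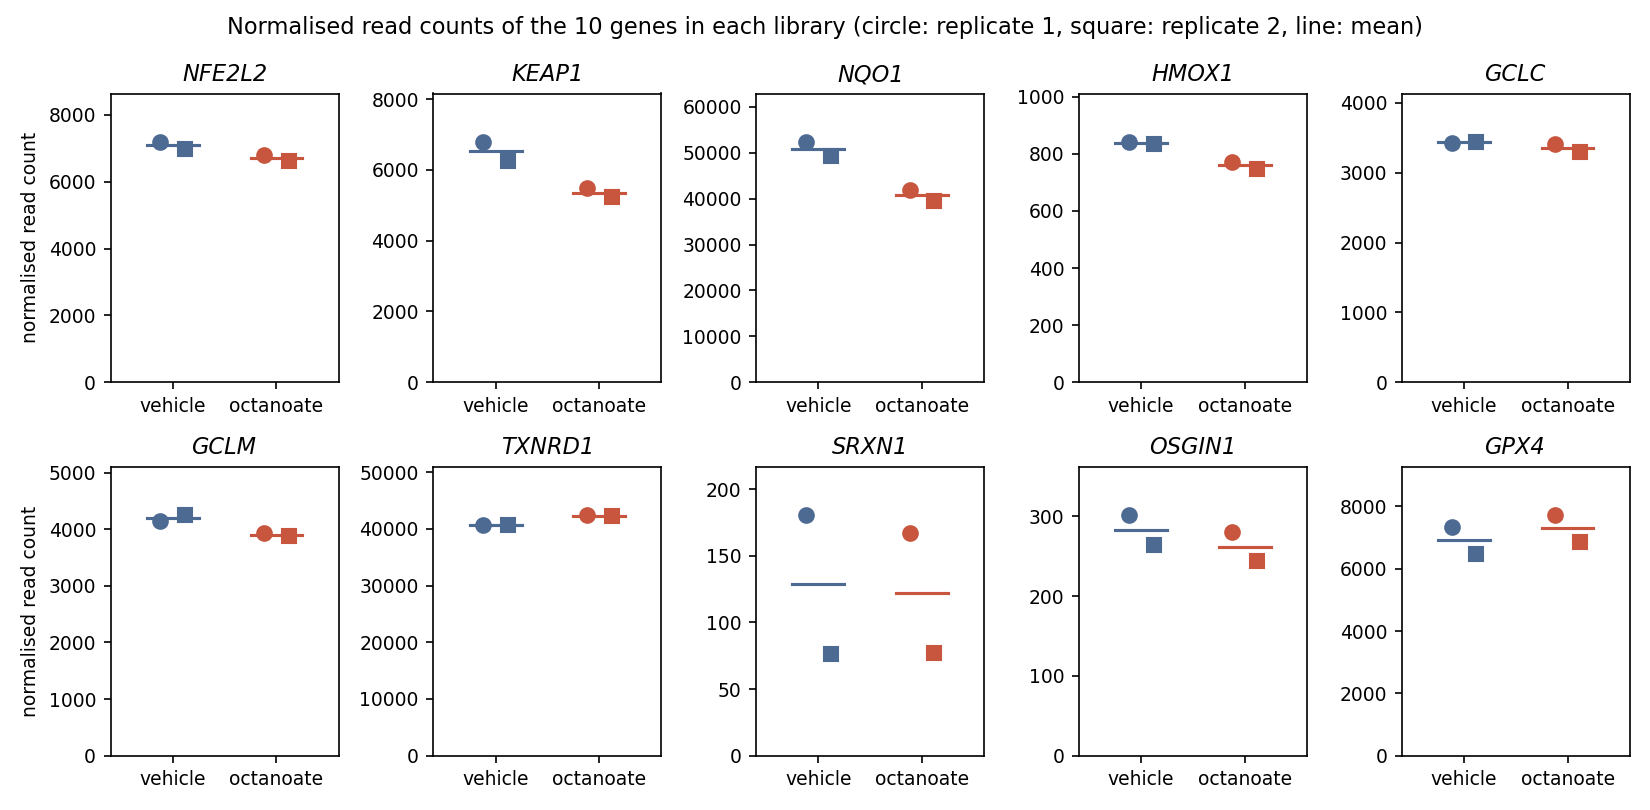
Normalised read count (vertical axis, from 0) of each of the 10 genes in the 2 vehicle (blue) and 2 octanoate (red) libraries, with group means as lines. NQO1 and KEAP1 sit lower in both octanoate libraries, and SRXN1 differs more between replicates than between groups.

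KEAP1 lies on chromosome 19, bases 10486120 to 10503741 on the minus strand (GENCODE 29, GRCh38, as all gene positions below). Its normalised count was 6798 and 6259.6 in vehicle and 5489 and 5219 in octanoate. Both octanoate libraries were below both vehicle libraries. KEAP1 fell by 18.0%, a log2 difference of -0.29 (standard error 0.06, adjusted p 0.000782 by limma). The call was lost without an intensity trend in the variance prior (adjusted p 0.117) and with every gene that had a read included (adjusted p 0.0587).

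NFE2L2, on chromosome 2 (bases 177227595 to 177392697, minus strand), was at 7201 and 6988 in vehicle and 6800.4 and 6626 in octanoate. The octanoate libraries were again the lower ones. The log2 difference of -0.08 (standard error 0.06) did not pass the test (adjusted p 0.316 by limma), with a 95% interval from -0.20 to 0.04. The RNA of NRF2 reports little of its activity, which is set mainly by the breakdown of the protein.

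Of 14 further genes for partners and regulators of NRF2, 6 were called higher and 2 lower. All 14 averaged 100 or more, and 57.1% were called, beside 38.3% of all such genes. MAFK, one of the small MAF partners, rose from 1873 ± 114 to 3699 ± 123 (SD, n = 2 each), with a log2 difference of 0.98 (standard error 0.07, adjusted p 2.89e-11 by limma). MAFF, a second small MAF, rose from 1829.7 ± 168 to 2579 ± 164, and MAFG rose from 4060.1 ± 124 to 4793 ± 77.0 (SD, n = 2 each). All 3 small MAF genes thus rose. The repressor BACH1 was at 3101 and 3104 in vehicle and 4009 and 4246 in octanoate, for a log2 difference of 0.41 (standard error 0.06, adjusted p 1.17e-05 by limma). NFE2L3, a relative of NRF2, rose by 0.67 and SQSTM1, the autophagy adaptor that can sequester KEAP1, by 0.39 on the log2 scale (adjusted p 3.74e-08 and 1.16e-05 by limma). CUL3, the scaffold of the ligase that KEAP1 serves, went from 6487 ± 68.7 to 5645 ± 48.9 (SD, n = 2 each, adjusted p 0.0092 by limma). MAFG and CUL3 fell outside the rule for named genes and were chosen after their values were seen. Without the intensity trend, the adjusted p was 0.0539 for BACH1, 0.0555 for NFE2L3, 0.0778 for MAFF and 0.0665 for SQSTM1. MAFK shares 809 exon bases with TMEM184A on the opposite strand, whose own count also went up, from 333 and 321 in vehicle to 641 and 704 in octanoate. BACH1 shares 302 with LINC00189 on the same strand, which stood at 153 and 162 in vehicle and 218 and 250.3 in octanoate. SQSTM1 shares 1582 with MRNIP on the opposite strand. NFE2L3 shares 1963 bases at 96.2% identity with the pseudogene NFE2L3P1. These counts are therefore uncertain.

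NQO1 encodes a quinone reductase and is a widely used readout of NRF2 activity. It lies on chromosome 16, bases 69706996 to 69726951 on the minus strand. The normalised count was 52452 and 49248 in vehicle and 42006 and 39409 in octanoate. The lowest vehicle library was above the highest octanoate library. NQO1 fell by 19.9%, a log2 difference of -0.32 (standard error 0.06, 95% interval from -0.45 to -0.20, adjusted p 0.000259 by limma). Without the intensity trend the adjusted p was 0.0938. In GENCODE 29 NQO1 shares 575 exon bases with an antisense gene. Whether counting was strand-aware is not given in the sources used here.

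Other enzymes and transporters for quinones and foreign compounds were mostly called higher, against the direction of NQO1. Of 20 such genes 18 were tested, with 12 called higher and 1 lower. The share called was 76.5% at a mean of 100 or more, beside 38.3% of all such genes tested. Of the 6 aldo-keto reductase genes in the list, which include strong NRF2 targets in human cells, 5 were called higher. The exception, AKR1B10, is a low gene at 17.7 and 20.3 in vehicle and 10.6 and 11.9 in octanoate, lower in both octanoate libraries but not called (log2 difference -0.71, adjusted p 0.215 by limma). It was named after its values were seen. AKR1C1 was at 303 and 302 in vehicle and 501 and 515 in octanoate, for a log2 difference of 0.74 (standard error 0.10, adjusted p 3.04e-06 by limma). AKR1C2 rose from 1845 ± 49.9 to 3099 ± 62.0 and AKR1C3 from 1109 ± 21.3 to 1788 ± 56.4 (SD, n = 2 each). The efflux pump gene ABCC3 rose from 1449.6 ± 14.0 to 3779 ± 17.3, the largest rise in this list at a log2 difference of 1.38 (standard error 0.06, adjusted p 2.78e-14 by limma). The single call in the lower direction was EPHX1, an epoxide hydrolase chosen after its values were seen, which went from 1966 ± 32.6 to 1564 ± 102 (SD, n = 2 each). AKR1C1 and AKR1C2 share 3770 bases at 97.1% identity, so reads may be split between them. ALDH3A1 and UGT1A6, the pair left untested, had at most 1 read in any library.

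**Figure D2:**
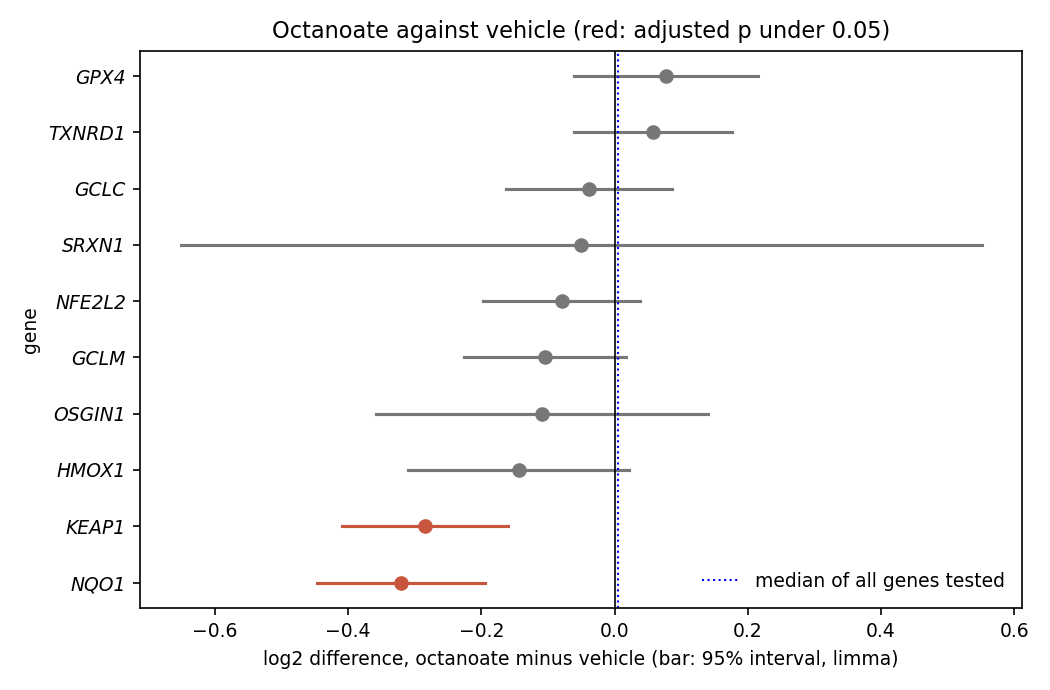
Log2 difference between octanoate and vehicle (horizontal axis) for each of the 10 genes (vertical axis), with 95% limma intervals. The intervals of NQO1 (-0.45 to -0.20) and KEAP1 (-0.41 to -0.16) lie below 0, and the interval of SRXN1 (-0.65 to 0.55) is the widest.

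HMOX1, which encodes the inducible heme oxygenase, lies on chromosome 22, bases 35380361 to 35394214 on the plus strand. It was at 843 and 836 in vehicle and 771 and 749 in octanoate. The groups did not overlap, but the log2 difference of -0.14 (standard error 0.08) missed the threshold (adjusted p 0.189 by limma), with an interval from -0.31 to 0.02. After correction of each library for GC content and transcript length, it was -0.19 (adjusted p 0.0349 by limma), which would call it lower. GC content was at hand for 74.8% of the genes tested, so that correction is void over the whole table and the call is not used. A rise of HMOX1 above 0.02 on the log2 scale lies outside the main interval.

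Among 11 further genes of heme and iron handling, 3 were called higher and 1 lower. The share called at a mean of 100 or more was 44.4%, near the 38.3% over all such genes. ALAS1, the first enzyme of heme synthesis, rose from 6109 ± 276 to 8978 ± 247 (SD, n = 2 each), with a log2 difference of 0.56 (standard error 0.06, adjusted p 6.92e-08 by limma). The biliverdin reductases act on the product of heme oxygenase: BLVRB rose by 0.44 and BLVRA by 0.20 on the log2 scale (adjusted p 4.27e-05 and 0.0229 by limma). FTH1, the heavy chain of the iron store ferritin, was at 22305 and 21258 in vehicle and 19060.3 and 15706 in octanoate. Its log2 difference of -0.33 (adjusted p 0.000734 by limma) rested on octanoate 2 and was -0.19 without it (adjusted p 0.0781). The authors' deposited table does not call FTH1 (adjusted p 0.0811), and FTH1 shares sequence with 17 other genes, pseudogenes of it among them. The adjusted p of BLVRA was 0.312 without vehicle 2 and 0.134 without octanoate 1. Without the intensity trend it was 0.0591 for BLVRB, 0.237 for BLVRA and 0.181 for FTH1.

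GCLC and GCLM encode the catalytic and the modifier subunit of glutamate-cysteine ligase, the first and limiting step of glutathione synthesis. GCLC (chromosome 6, bases 53497341 to 53616970, minus strand) was at 3430.5 and 3445 in vehicle and 3408 and 3290.2 in octanoate. GCLM (chromosome 1, bases 93885205 to 93909456, minus strand) was at 4146 and 4248 in vehicle and 3929 and 3878 in octanoate. In both genes the octanoate libraries were below the vehicle libraries, for GCLC by less than the gap within the octanoate group. The log2 difference was -0.04 for GCLC, with a 95% interval from -0.16 to 0.09 (adjusted p 0.691 by limma). For GCLM it was -0.10, with an interval from -0.23 to 0.02 (adjusted p 0.193 by limma). With the replicate number as a block the adjusted p of GCLM was 0.0492. GCLC shares 529 exon bases with a non-coding gene on the same strand. Its log2 difference turned to 0.0093 after correction for GC content and length, a correction that is void over the whole table.

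Of 20 other glutathione genes, 8 were called higher, 1 lower and 11 not at all. At a mean of 100 or more the share called was 47.4%, near the 38.3% over all such genes. The cystine importer is built from SLC7A11 and SLC3A2. SLC7A11 was at 6374 and 6610.4 in vehicle and 7228 and 8146 in octanoate, for a log2 difference of 0.24 (adjusted p 0.00447 by limma). The adjusted p of SLC7A11 was 0.162 without octanoate 2 and 0.0518 without vehicle 1, and its exons share 865 bases with the antisense gene SLC7A11-AS1. SLC3A2 rose by 0.35 on the log2 scale (adjusted p 5.96e-05 by limma). GSR, which regenerates reduced glutathione, rose from 4775 ± 175 to 5736 ± 243, and the microsomal transferase MGST1 rose from 4165 ± 165 to 5806 ± 155 (SD, n = 2 each). CHAC1, which degrades glutathione, had the largest difference of the list, 1.46 on the log2 scale (standard error 0.08, adjusted p 6.75e-13 by limma). SLC7A11, SLC3A2 and CHAC1 are also known as targets of ATF4, the factor of the integrated stress response. Without the intensity trend the adjusted p was 0.181 for SLC7A11, 0.0785 for SLC3A2 and 0.117 for GSR.

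**Figure D3:**
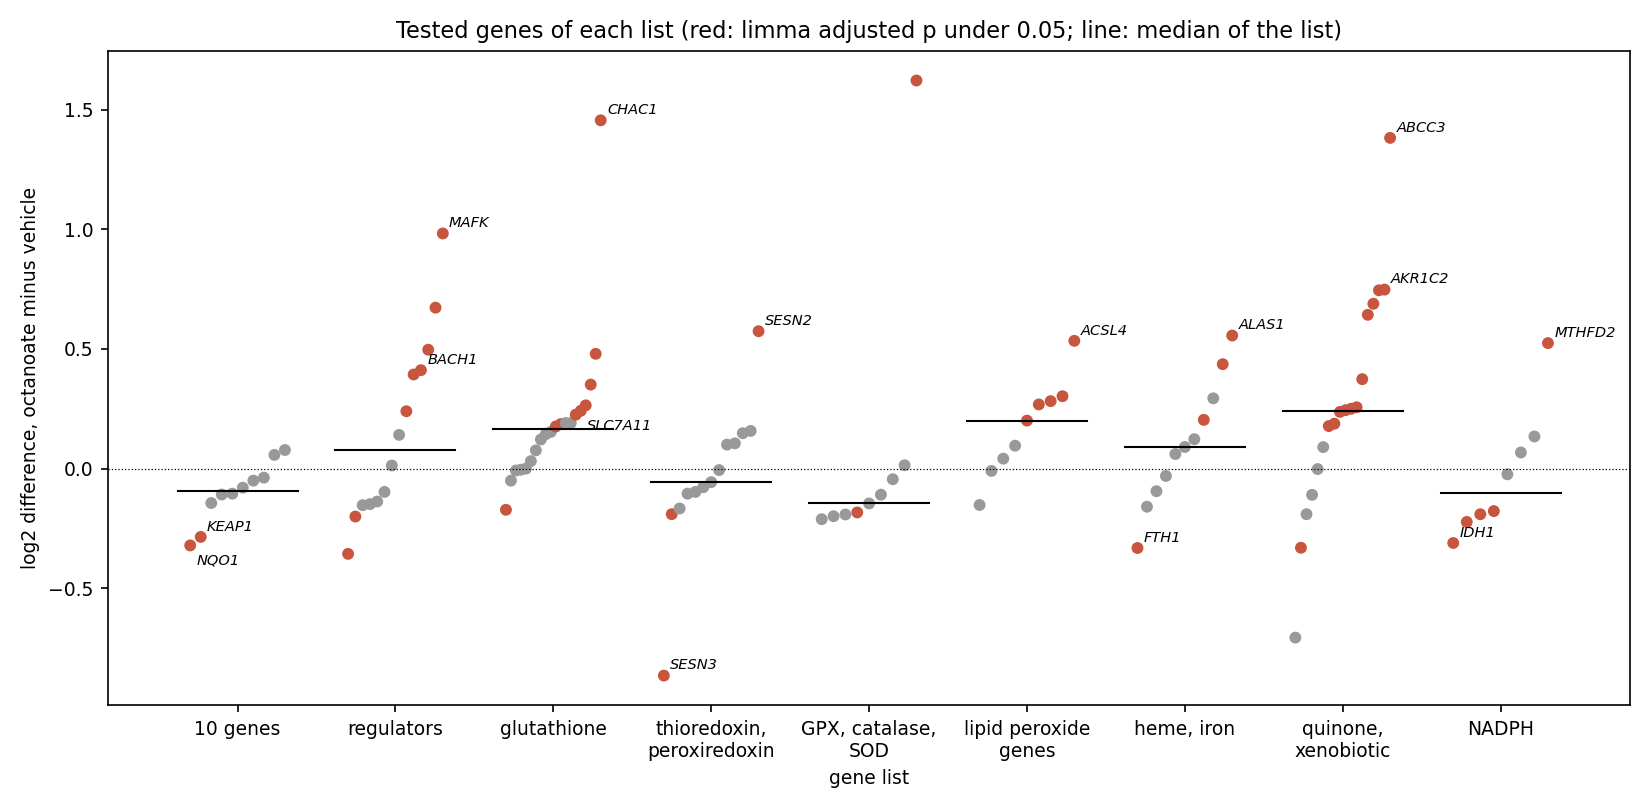
Log2 difference between octanoate and vehicle (vertical axis) of the tested genes of each list (horizontal axis), each point a gene, red where limma called it, with the list median as a line. The 10 genes lie between -0.32 and 0.08, while the quinone and xenobiotic list reaches 1.38 with ABCC3.

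TXNRD1 encodes the cytosolic thioredoxin reductase, a selenoprotein that keeps thioredoxin reduced. The gene lies on chromosome 12, bases 104215779 to 104350305 on the plus strand. It was at 40707 and 40703 in vehicle and 42446 and 42260.3 in octanoate, the only gene of the 10 with both octanoate libraries above both vehicle libraries. The log2 difference of 0.06 (standard error 0.06) did not pass the test (adjusted p 0.497 by limma), and its interval ran from -0.06 to 0.18. For 7 of the 10 genes the groups did not overlap, 6 of them lower and 1 higher in octanoate, beside 63.1% of all genes tested (30.5% lower and 32.6% higher).

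SRXN1 encodes sulfiredoxin, which repairs over-oxidised peroxiredoxins, and lies on chromosome 20, bases 646615 to 653370 on the minus strand. Its normalised count was 181 and 76.5 in vehicle and 167 and 76.9 in octanoate. These values rest on 184, 79, 174 and 71 reads. Replicate 1 was more than 2-fold above replicate 2 in each group, while the group means, 129 ± 73.6 and 122 ± 64.0 (SD, n = 2 each), were close. From replicate 1 to replicate 2 the log2 difference was -1.23 in vehicle and -1.11 in octanoate. Of 15069 genes averaging 50 or more, only SRXN1 and PDXP were at least 2-fold lower in replicate 2 of both groups, and 0 were at least 2-fold higher. Counting any size of difference, 8 of the 10 genes were lower in replicate 2 of both groups and 0 higher. Of all genes tested, 39.9% were lower in replicate 2 of both groups. What the numbers 1 and 2 stand for is not stated in the labels. The log2 difference between the groups was -0.05 with an interval from -0.65 to 0.55 (adjusted p 0.921 by limma). The limma standard error, 0.29, draws mostly on the variance of other genes, and the authors' deposited table gives 0.79 for SRXN1. The interval is thus narrow for a gene with such replicate gaps. The sign of the difference followed the library left out: 0.56 without vehicle 1, 0.51 without octanoate 2, -0.66 without vehicle 2 and -0.61 without octanoate 1. In GENCODE 29, SRXN1 shares 2292 of its 2698 exon bases with the protein-coding gene AL121758.1 on the same strand, so its count depends on how shared reads were assigned.

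**Figure D4:**
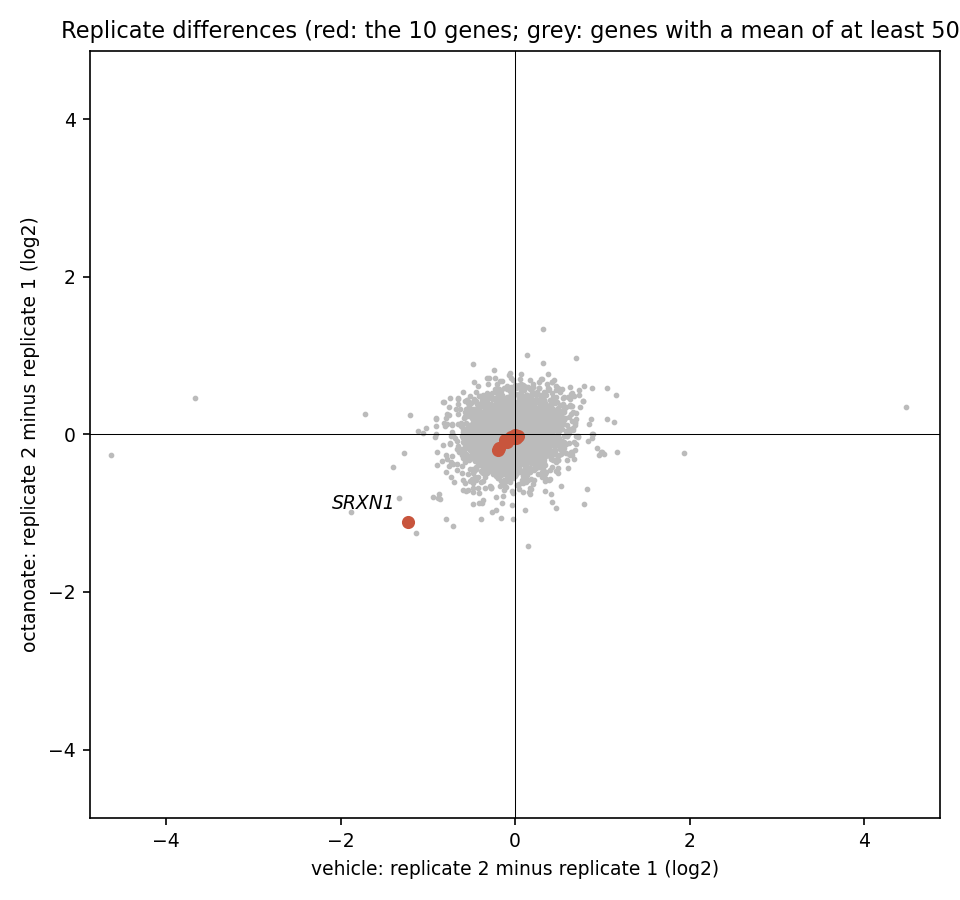
Log2 difference from replicate 1 to replicate 2 in vehicle (horizontal axis) and in octanoate (vertical axis), for genes averaging 50 or more normalised counts (grey) and the 10 antioxidant genes (red). SRXN1 stands at -1.23 and -1.11, apart from the other 9.

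Of 13 other thioredoxin and peroxiredoxin genes, 1 was called higher and 2 lower. All 13 averaged 100 or more, and 23.1% were called, beside 38.3% of all such genes. TXN, thioredoxin itself, was at 31143 and 29911 in vehicle and 35514 and 32193 in octanoate, for a log2 difference of 0.15 (adjusted p 0.0703 by limma). On the recovered reads TXN was called higher by edgeR (adjusted p 0.0342) and DESeq2 (0.0332), and it was called with equal column totals (0.0299), with the replicate block (0.00192) and without octanoate 2 (0.0482). PRDX1, a peroxiredoxin and NRF2 target, was at 47989.7 and 47166 in vehicle and 44656 and 44281 in octanoate (adjusted p 0.221 by limma, and 0.0489 with the replicate block). The sestrins moved apart: SESN2 rose by 0.57 on the log2 scale and SESN3 fell by 0.86 (adjusted p 6.2e-07 and 7.29e-09 by limma). Mitochondrial thioredoxin, TXN2, had a log2 difference of -0.19 (adjusted p 0.0196 by limma), which was 0.172 without vehicle 1 and 0.28 without octanoate 2. PRDX1 shares 379 exon bases with MMACHC on the opposite strand.

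GPX4, the selenoprotein that reduces lipid peroxides in membranes and restrains ferroptosis, lies on chromosome 19, bases 1103926 to 1106791 on the plus strand. It is usually counted with the antioxidant genes, although it is a less direct NRF2 target than the others. It was at 7346 and 6485 in vehicle and 7721 and 6872 in octanoate. The groups overlapped, and in each group replicate 1 was the higher library. The log2 difference of 0.08 (standard error 0.07, adjusted p 0.418 by limma, interval from -0.06 to 0.22) was smaller than the gap between replicates, and its sign turned without vehicle 2 (-0.012) and without octanoate 1 (-0.0063).

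Of 9 other peroxidase, catalase and superoxide dismutase genes, SOD1 was called lower and GPX2 higher. At a mean of 100 or more 12.5% were called, beside 38.3% of all such genes. SOD1 was at 19894 and 19247 in vehicle and 18026 and 16477 in octanoate, for a log2 difference of -0.18 (adjusted p 0.0206 by limma). The adjusted p of SOD1 was 0.118 without vehicle 1, 0.329 without octanoate 2 and 0.22 without the intensity trend. GPX2, chosen after its values were seen, is a low gene with normalised counts of 6.87 and 2.91 in vehicle and 18.3 and 14.1 in octanoate (adjusted p 0.0287 by limma). Its mean of 10.5 passed the filter only through the octanoate group, with 4.89 in vehicle and 16.2 in octanoate. The authors' deposited table does not call GPX2, and its call here gives no support to a rise. Among 9 genes for the making or clearing of oxidisable lipids and for iron entry, 5 were called higher and the other 4 were not called. All 9 averaged 100 or more, and the share called was 55.6%, beside 38.3% of all such genes. ACSL4, which loads polyunsaturated fatty acids into membranes and favours ferroptosis, rose from 8519 ± 78.0 to 12335 ± 233 (SD, n = 2 each), with a log2 difference of 0.53 (standard error 0.06, adjusted p 6.53e-08 by limma). AIFM2, which encodes the ferroptosis suppressor FSP1, rose by 0.30 on the log2 scale (adjusted p 0.0011 by limma). LPCAT3, an acyltransferase that acts with ACSL4, had a log2 difference of 0.28 (adjusted p 0.00213 by limma) and the metal transporter SLC39A14 one of 0.20 (0.00869). Calls in this list thus include genes known to act in opposite directions on lipid peroxidation. SLC39A14 lost its call without vehicle 2 (adjusted p 0.0758) and without octanoate 2 (0.0793). Without the intensity trend the adjusted p was 0.0997 for AIFM2, 0.08 for LPCAT3 and 0.141 for SLC39A14. LPCAT3 shares 3100 exon bases with EMG1 on the opposite strand.

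OSGIN1, an oxidative stress-induced growth inhibitor, lies on chromosome 16, bases 83948282 to 83966332 on the plus strand. It was at 301 and 264 in vehicle and 280.1 and 244 in octanoate. The groups overlapped, with replicate 1 the higher library in each. The log2 difference was -0.11 (standard error 0.12, interval from -0.36 to 0.14, adjusted p 0.547 by limma). OSGIN1 shares 481 exon bases with another gene on the same strand. Its relative OSGIN2 was not called (log2 difference 0.14, adjusted p 0.0863 by limma).

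NADPH, the reductant for glutathione reductase, thioredoxin reductase and NQO1, comes in part from the pentose phosphate pathway, whose enzymes are also NRF2 targets. Of 8 NADPH genes, 1 was called higher and 4 lower. All 8 averaged 100 or more, and 62.5% were called, beside 38.3% of all such genes. IDH1, the cytosolic isocitrate dehydrogenase, fell from 14272 ± 450.1 to 11503 ± 126 (SD, n = 2 each), with a log2 difference of -0.31 (standard error 0.06, adjusted p 0.000142 by limma). PGD had a log2 difference of -0.19 and TKT one of -0.22 (adjusted p 0.0129 and 0.00971 by limma). Without vehicle 1 the adjusted p was 0.137 for PGD and 0.119 for TKT, and without octanoate 2 it was 0.0833 and 0.175. For PGD it was 0.0581 without octanoate 1. MTHFD2, a folate enzyme of mitochondria and another ATF4 target, rose from 15663 ± 198 to 22528 ± 291 (SD, n = 2 each, adjusted p 8.53e-08 by limma), and shares 1324 exon bases with SLC4A5 on the opposite strand. The adjusted p was 0.0755 for IDH1, 0.173 for PGD and 0.193 for TKT when the intensity trend was left out.

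Over all 103 tested genes of these further lists, 37 were called higher and 12 lower. Of those averaging 100 or more, 49.0% were called, beside 38.3% of all such genes. The number of lower calls depended on the library left out, as did the number of genes called over the whole table. The median log2 difference of the 103 genes was 0.10. That of the 10 antioxidant genes, -0.09, rested partly on the octanoate libraries, at -0.14 without octanoate 1 and -0.037 without octanoate 2.

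Levels were compared between genes only per kilobase of the longest GENCODE 29 transcript. In vehicle, NQO1 was highest at 17462 ± 778 normalised counts per kilobase (SD, n = 2), followed by TXNRD1 at 9517 ± 0.649 and GPX4 at 5841 ± 514. NFE2L2 (2487 ± 52.6) and KEAP1 (2209 ± 129) came next, and dividing by the length of all annotated exons put KEAP1 above NFE2L2. GCLC (902 ± 2.72) and GCLM (864 ± 14.9) also changed places on that scale, so the order within these pairs depends on the length used. HMOX1 (461 ± 2.73), OSGIN1 (118 ± 11.2) and SRXN1 (47.7 ± 27.3) were lowest. In octanoate the order was the same, with NQO1 at 13979 ± 631 and TXNRD1 at 9903 ± 30.7 normalised counts per kilobase.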

How the data were processed

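RNA-seq libraries of vehicle and octanoate A375 cells (n = 2 each) were analysed from 2 deposited tables. Per the submitters' processing notes, bcl2fastq 2.17, Trim Galore, STAR 2.4, Picard, HTSeq 0.9.1 and DESeq2 were used with build hg38. Annotation, strand setting and the role of each tool are not given in the sources used here. The first deposited table holds a signal per gene, a count divided by 1 size factor per library. All positive values (100% in each library) were whole multiples of the smallest one within 0.001, which gave back whole reads. The authors' comparison table, per the file headers, lists the mean signal, the log2 fold change and its error, a test score, and raw and adjusted p-values.

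The deposited values being normalised, limma 3.58.1 (R 4.3.3) was fitted to log2(value + 1) with an intensity trend, two-sided, with treatment as the only term, over genes with a mean of at least 10. A pseudocount of 1 compresses the differences of low genes. An exact permutation test of 2 against 2 libraries cannot go below p = 0.333, so none was used. Fits were tested on simulated data. Alternatives were other pseudocounts, filters, scalings and variance priors, a replicate block, leaving out each library, edgeR 4.0.16 and DESeq2 1.42.0 on recovered reads, GENCODE 29 genes only, and removal of GC content and length trends. Shared sequence (at least 95% identity over at least 100 bases) was searched with blastn.

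The members and lists were chosen with earlier results of these data known. Named were the 10 members, up to 4 called genes per list with the smallest p and a mean of at least 100, and SLC7A11, BACH1, SQSTM1, TXN, PRDX1 and GSR, which with 1 gene not reported here made 33 genes beside the members.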

Additional observations from a re-analysis of the deposited data

How the results depend on the processing

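All alternatives were planned. The call of NQO1 as lower held under 15 of 16 and that of KEAP1 under 14 of 16, and neither changed sign. Genes called over the whole table, 6048, came to 2595 with no filter and 1625 without an intensity trend. Under these 2 settings the members called lower, 2, came to 1 and 0, the further pathway genes called higher, 37, to 20 and 11, and those called lower, 12, to 3 and 1. Lower calls among the further genes were 19 with equal column totals, 21 with GC content and length trends removed, 23 with the replicate block, and 4 to 14 with a library left out. The median of the members was between -0.14 and -0.037 with a library left out. GCLC reversed to 0.0093 with GC content and length trends removed. With a library left out, SRXN1 lay between -0.66 and 0.56, positive without vehicle 1 and without octanoate 2, and GPX4 between -0.012 and 0.17, negative without vehicle 2 and without octanoate 1. A GC content was at hand for all 10 members but for 74.8% of the genes tested, under 80%, so over the whole table the GC correction is void. A left-out library leaves 1 sample in a group, assumed to vary like the other group. Of 30 named genes called outside the members, 18 lost the call without the trend, where the prior degrees of freedom fell from 21.2 to 1.57. The replicate numbers share no stated source. The replicate differences of the 2 groups had a Pearson r of 0.186 over 15069 genes, which are not independent, and the replicate block raised the genes called to 8376. On the recovered reads edgeR called 6480 genes and DESeq2 4947. The replicate block made no call among the members beyond those 2 and GCLM (adjusted p 0.0492). The standard error was 0.12 for OSGIN1 and 0.29 for SRXN1, beside a median of 0.11 over genes averaging 100 to 1000.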

Other observations

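PDXP, which encodes a pyridoxal phosphatase and belongs to none of the lists, shared the replicate pattern of SRXN1. Its normalised count was 344 and 156 in vehicle and 242 and 101 in octanoate, with replicate 1 the higher library in each group. From replicate 1 to replicate 2 its log2 difference was -1.13 in vehicle and -1.25 in octanoate, and between the groups it was not called (limma adjusted p 0.136).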
